A study of Mus musculus with 4 samples.

Results

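Of the matrix metalloproteinase genes of the mouse, Mmp3, Mmp13, Mmp1b and Mmp2 were described by the accessibility of the regions assigned to them. They had 4 regions among the 34172 of both deposited tables, all 4 in the table of the Rela pair, which held 28445 regions, and 0 in the table of the Kindlin-2 pair, which held 5727. Each was a promoter region, with its centre within 2500 bp of the start of its gene. The genes were picked by name with their values already known, so their own values are a description and carry no test. Beside them, the 12 regions of the Rela table on chromosome 9 from 7.0 to 7.7 Mb were followed, 3 of which belonged to Mmp13, Mmp1b and Mmp3.

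Accessibility was measured from 50000 cells per library by ATAC-seq, an assay in which a transposase tags DNA that is not packed away, so that open regions yield more fragments. The Rela pair comprised 3T3 cells, a mouse embryo fibroblast line, of genotype Rela K.O. and Rela wt. The Kindlin-2 pair comprised kidney fibroblasts of genotype Kindlin-2 K.O. and Kindlin-2 floxed, the controls thus carrying the floxed allele. All cells were between passages 15 and 20 and grew in serum, and no stimulus is named in the labels. How the alleles were deleted, and whether a line is 1 clone, is not stated in the labels. The product of Rela is the p65 subunit of the transcription factor NF-kB, and Kindlin-2 is an adaptor of integrin tails. Although 2 biological replicates of each genotype are stated in the design, each table holds 1 value column per genotype, so the spread between cultures cannot be seen for any value and no test was run. Values are normalized signal, background-corrected, scaled within a table and rounded by the authors. Intervals in brackets are exact 95% intervals that cover counting error alone.

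Matrix metalloproteinases are zinc endopeptidases that are made as inactive proenzymes and, once activated, cut collagens, proteoglycans and other proteins of the extracellular matrix. In fibroblasts the stromelysin and collagenase genes are known as inducible genes that answer inflammatory cytokines and growth factors, in large part through AP-1 sites near their starts, and NF-kB is known to take part in their induction by cytokines. Mmp2, a gelatinase gene, is known for more constant expression in mesenchymal cells and lies on another chromosome than the stromelysin and collagenase genes.

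The promoter sequences of the 3 cluster members and of their neighbour Mmp10 are shown because all 4 hold AP-1 and TATA box letters, and Mmp10 differed from the other 3 in direction. Each is the 250 bases before the RefSeq start, from RefSeq on build GRCm38.p6, whose coordinates are those of mm10. They lie at chr9:7445572-7445821 on the + strand for Mmp3, chr9:7272264-7272513 on the + strand for Mmp13, chr9:7388027-7388276 on the - strand for Mmp1b and chr9:7502092-7502341 on the + strand for Mmp10. Capitals mark matches to the AP-1 letters TGANTCA, which read the same on both strands, and to the TATA box letters TATAAA.
Mmp3: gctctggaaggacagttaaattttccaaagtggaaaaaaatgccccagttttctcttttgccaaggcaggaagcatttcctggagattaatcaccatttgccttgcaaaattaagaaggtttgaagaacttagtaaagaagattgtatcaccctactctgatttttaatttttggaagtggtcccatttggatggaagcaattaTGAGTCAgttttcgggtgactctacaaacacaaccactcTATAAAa
Mmp13: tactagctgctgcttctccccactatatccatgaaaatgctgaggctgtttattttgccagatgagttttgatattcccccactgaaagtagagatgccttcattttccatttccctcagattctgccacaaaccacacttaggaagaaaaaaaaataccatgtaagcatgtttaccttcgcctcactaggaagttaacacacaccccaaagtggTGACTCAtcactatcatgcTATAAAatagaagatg
Mmp1b: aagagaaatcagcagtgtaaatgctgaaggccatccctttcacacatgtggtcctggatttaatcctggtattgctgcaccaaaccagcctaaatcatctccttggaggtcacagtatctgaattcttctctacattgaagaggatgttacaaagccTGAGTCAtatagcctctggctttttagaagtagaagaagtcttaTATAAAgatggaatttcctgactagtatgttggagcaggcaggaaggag
Mmp10: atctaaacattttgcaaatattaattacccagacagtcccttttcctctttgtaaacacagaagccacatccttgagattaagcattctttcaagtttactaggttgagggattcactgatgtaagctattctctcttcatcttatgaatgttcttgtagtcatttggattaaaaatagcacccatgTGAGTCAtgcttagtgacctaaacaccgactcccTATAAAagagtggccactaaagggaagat

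All 4 sequences held both motifs, with no overlap between them. In each, the AP-1 letters lay before the TATA box letters. They began 46 bases before the RefSeq start in Mmp3, 35 in Mmp13, 93 in Mmp1b and 63 in Mmp10. Over the window from 250 bases before to 50 after each start, AP-1 letters were in 8 of the 12 promoters of the 10 metalloproteinase genes of this cluster, against 7.81% of all 32851 RefSeq promoters of the same length. The TATA box letters, searched on both strands, were in 9 of the 12, against 13.6% of all. The PEA3/ETS letters AGGAAG, on both strands, were in 8 of the 12, and in 35.4% of all promoters. Within the printed bases they began 183 bases before the start in Mmp3, 109 and 62 in Mmp13 and 9 in Mmp1b, and Mmp10 had none. RUNX letters, TGTGGT on both strands, were in 4 of the 12, among them Mmp13 and Mmp1b, and in 16.8% of all. The NF-kB consensus was in 0 of the 12 and in 4.51% of all promoters, which says only that those letters were not in these windows. All 4 printed promoters were poor in G and C, from 37.2% to 42%, against a median of 52.4%, and held 0 or 1 CG dinucleotide against a median of 6. The regions of Mmp13, Mmp1b and Mmp10 covered all 250 printed bases, and that of Mmp3 covered 212.

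Mmp3 (ENSMUSG00000043613) encodes stromelysin-1, which cuts proteoglycans, fibronectin and other matrix proteins and activates procollagenases. Its promoter region on chromosome 9 (7445610 to 7446042, with its centre 4 bp from the gene start) had a signal of 3 in Rela knockout cells and 56 in wild-type cells. The counting intervals of these values were 0.587 to 8.32 in knockout cells and 44.5 to 69.5 in wild-type cells. The signal was 18.7-fold lower in the knockout (6.5 to 97.4), with a log2 ratio of -3.83. In knockout cells the region stood at or above 1.71% of all promoter regions, and in wild-type cells at or above 54%.

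Mmp13 (ENSMUSG00000050578) encodes collagenase-3, a major interstitial collagenase of the mouse. Its promoter region (7272258 to 7272721, centred 24 bp from its start) had a signal of 4 in Rela knockout cells (1.03 to 9.72) and 43 in wild-type cells (33.1 to 55.1). This was a 10.8-fold lower signal in the knockout (4.21 to 42.9), with a log2 ratio of -3.14. The region stood at or above 2.24% of promoter regions in knockout cells and 41.6% in wild-type cells.

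Mmp1b (ENSMUSG00000041620) belongs to a pair of mouse genes related to human interstitial collagenase. Its promoter region (7387839 to 7388737, centred 241 bp from the start) was the widest of the 4, with 898 bp. It had a signal of 17 in Rela knockout cells (10.1 to 27) and 104 in wild-type cells (88.0 to 122), a 6.12-fold lower signal in the knockout (3.72 to 10.5). The log2 ratio was -2.54. Of the 3 lower members Mmp1b rested on the most signal, with 17.9 and 152 implied counts in knockout and wild-type cells. It stood at or above 13.7% of promoter regions in knockout cells and 81% in wild-type cells. Its paralog Mmp1a had 0 regions in the Rela table. The 250 bases before the starts of Mmp1b and Mmp1a were 71.3% identical, whereas those of the 4 printed promoters were between 45.5% and 51.6% identical to one another. How reads shared by such copies were counted is not given in the sources used here, so the level of Mmp1b is uncertain to that extent.

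Mmp2 (ENSMUSG00000031740), on chromosome 8, encodes gelatinase A, which cuts denatured and basement membrane collagens. Its promoter region (92827345 to 92827768, centred 266 bp from the start) went the other way, with a signal of 55 in Rela knockout cells (41.8 to 71.2) and 18 in wild-type cells (11.6 to 26.0). The signal was 3.06-fold higher in the knockout (1.92 to 5.13), with a log2 ratio of 1.56. This difference lay in a stretch that was itself higher in the knockout. Chromosome 8 as a whole had 36.9% of its 1972 tested regions past 2-fold in the higher direction, with a median log2 ratio of 0.61. The 50 regions on each side of Mmp2 had a median of 0.87. With chromosome 8 centred on its median the Mmp2 log2 ratio was 0.95, and when centred on those neighbouring regions it was 0.69, both within 2-fold.

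**Figure D1:**
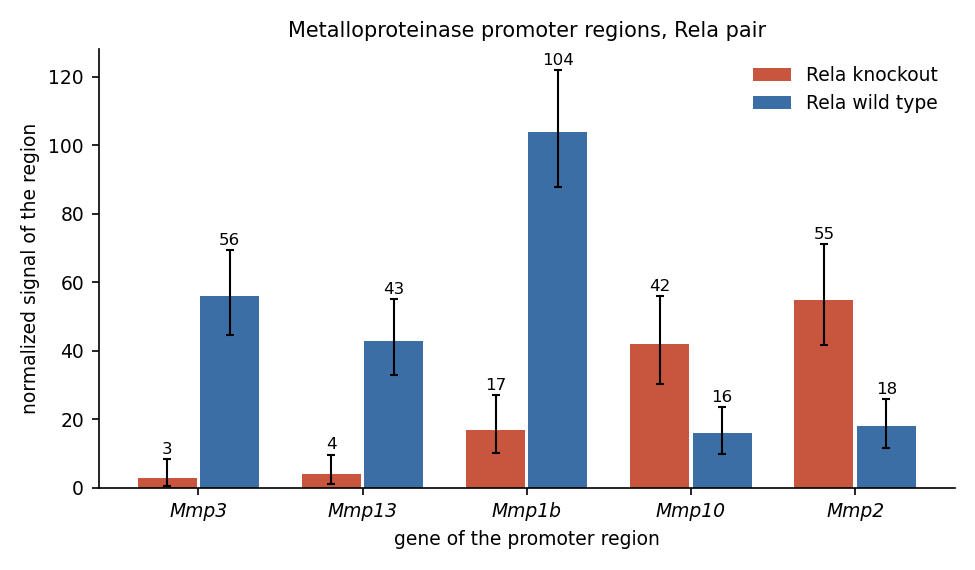
Normalized signal of 5 metalloproteinase promoter regions in Rela knockout (left bars) and wild-type cells (right bars), with the values printed and error bars of exact 95% counting intervals. Mmp3, Mmp13 and Mmp1b had 3, 4 and 17 in knockout cells against 56, 43 and 104 in wild-type cells, while Mmp10 and Mmp2 had 42 and 55 in knockout cells against 16 and 18 in wild-type cells.

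Of the 4 members, 3 were thus at least 2-fold lower in the knockout and 1 was higher by as much. A region counted when its log2((knockout + 1)/(control + 1)) was at least 1 in size. Among the 8061 tested promoter regions of the Rela table, 13.1% passed this threshold as lower and 13% as higher in the knockout, and nothing is read from the members' count, since these values chose them. Of all 28332 tested regions, 21% were lower and 22.4% higher, and 414 had a lower log2 ratio than Mmp3, 759 than Mmp13 and 1316 than Mmp1b. The Mmp2 ratio was exceeded by 4172 regions.

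Levels of the promoters were set against each other per kb of region, since the widths ran from 394 to 898 bp. In Rela knockout cells Mmp2 led with a signal per kb of 130 (98.8 to 168), followed by Mmp10 with 107 (77.0 to 142), Mmp1b with 18.9 (11.3 to 30.1), Mmp13 with 8.64 (2.23 to 21.0) and Mmp3 with 6.94 (1.36 to 19.3). In wild-type cells the pair Mmp2 and Mmp10 came last, and the order ran from Mmp3 with 130 per kb (103 to 161), Mmp1b with 116 (98.0 to 136) and Mmp13 with 92.9 (71.4 to 119) to Mmp2 with 42.6 (27.4 to 61.5) and Mmp10 with 40.6 (25.3 to 59.8). Neighbours in these orders did not differ beyond their counting intervals within the pair Mmp2 and Mmp10, nor among Mmp3, Mmp13 and Mmp1b, in either genotype. That the pair and the other 3 changed places follows from the directions by which the genes are described.

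**Figure D2:**
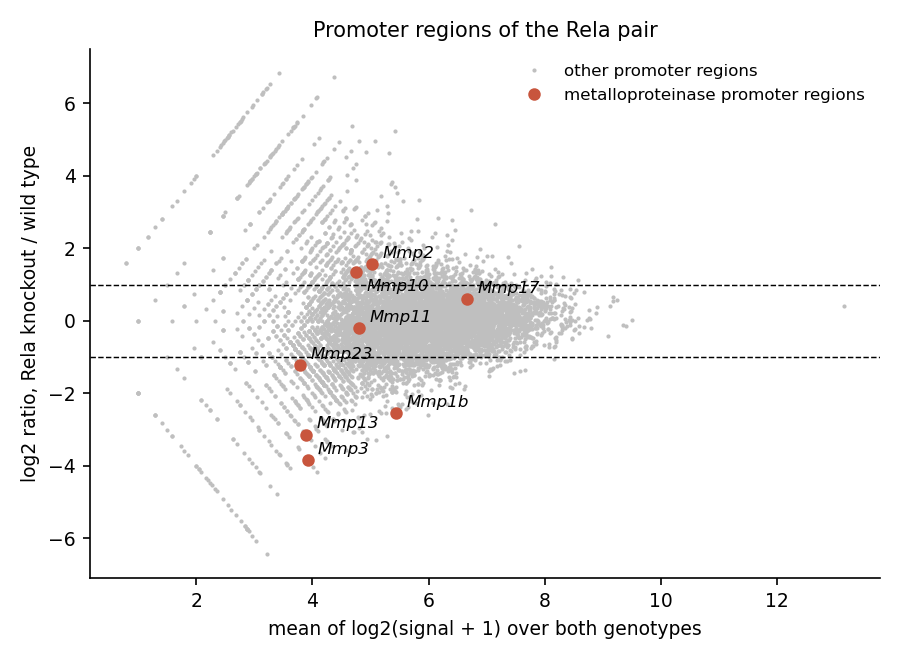
Each promoter region of the Rela table by its mean log2(signal + 1) over both genotypes (x axis) and its log2 ratio of knockout over wild type (y axis), with the 8 metalloproteinase promoters labelled in colour and dashed lines at a 2-fold difference. Mmp3, Mmp13 and Mmp1b lie well below the lower dashed line, with log2 ratios of -3.83, -3.14 and -2.54.

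Other promoters with values like these are named as a description only. Among 6833 promoter regions with a gene symbol, Rragb was the 1 other whose signal was at most 17 in knockout cells and at least 104 in wild-type cells, the values of Mmp1b. At most 3 in knockout cells and at least 56 in wild-type cells was met by Mmp3 and 5 others, namely Dmd, Gcnt2, Lrrc1, Phf11 and Snrnp48. The same reading gave 18 promoters for Mmp13 and, in the higher direction, 95 for Mmp2 and 159 for Mmp10, each itself included. By distance over both genotypes on the log2(signal + 1) scale, the 5 promoters nearest to Mmp3 were Cpa4 (3 and 55 in knockout and wild-type cells), Gcnt2 (3 and 60), Snrnp48 (3 and 64), Tert (4 and 54) and Phf11 (3 and 71), at distances from 0.03 to 0.34. Those nearest to Mmp13 were Gm14139, 1700123L14Rik, Txlnb, B020004C17Rik and C1s1, with 4 or 5 in knockout cells and 40 to 48 in wild-type cells, at distances from 0.10 to 0.28. This likeness rests on 2 values per region.

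Along chromosome 9 the 3 lower promoters did not mark a uniformly lower stretch. The 12 regions from 7.0 to 7.7 Mb summed to 400 in Rela knockout cells and 516 in wild-type cells, a ratio of 0.775 (0.686 to 0.874). Without Mmp3, Mmp13 and Mmp1b the other 9 summed to 376 in knockout cells and 313 in wild-type cells, a ratio of 1.2 that leaving out the lower members had to raise. It rested on the region at 7526193 to 7527024 beyond Mmp10, without which the other 8 summed to 270 in knockout cells and 278 in wild-type cells. The 3 members alone summed to 24 in knockout cells and 203 in wild-type cells. By calls, 4 of the 12 regions were at least 2-fold lower and 2 at least 2-fold higher, beside 23.8% lower and 17.8% higher among 1530 tested regions of chromosome 9. The median log2 ratio was -0.28 over the 12 regions, 0.26 over the 9 without members, -0.24 over chromosome 9 and 0.00 over the table.

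**Figure D3:**
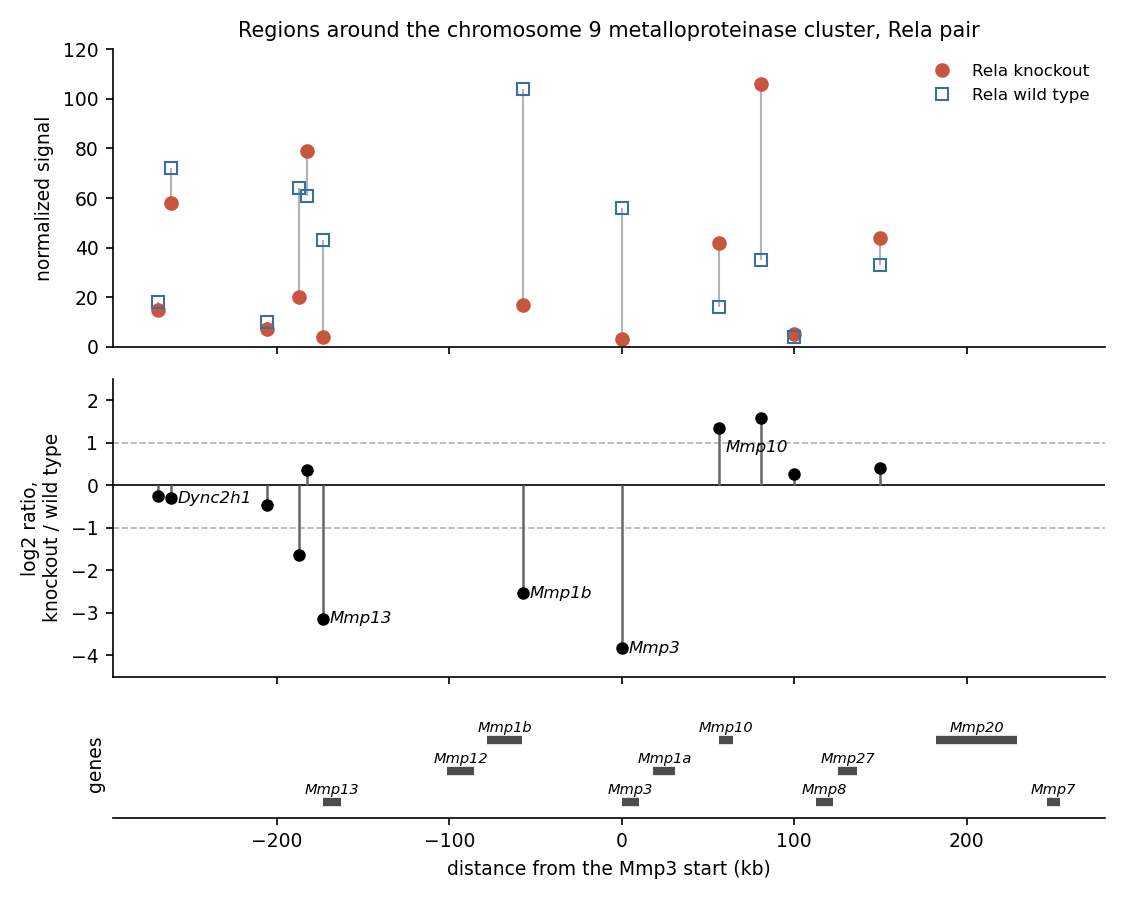
The 12 regions of the window by distance of their centre from the Mmp3 start in kb (x axis), with signal in Rela knockout and wild-type cells (top), the log2 ratio of knockout over wild type with dashed lines at 2-fold (middle) and the bodies of the 10 metalloproteinase genes (bottom). The promoters of Mmp13, Mmp1b and Mmp3 stand between -2.54 and -3.83, and the next 2 regions, at 56.4 and 80.8 kb, stand at 1.34 and 1.57.

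Before Mmp13 the window held 5 regions, and the 3 farthest from that gene were within 2-fold. The region at its left edge (7176903 to 7177186), which overlaps Dync2h1 and Dcun1d5, had a signal of 15 in knockout and 18 in wild-type cells. The region assigned to the Dync2h1 promoter, of a dynein heavy chain gene of cilia, had 58 in knockout and 72 in wild-type cells. In RefSeq it overlaps Dcun1d5. An unassigned region at 7240180 to 7240366 had 7 in knockout and 10 in wild-type cells. All 3 had intervals of the ratio that included 1.

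The other 2, both unassigned, lay nearer to Mmp13 and inside Gm31639, a long noncoding RNA gene. The farther one, 13.9 kb from the Mmp13 start (7258448 to 7258875), had 20 in Rela knockout cells and 64 in wild-type cells, 3.20-fold lower in the knockout (1.99 to 5.45). The one 9.0 kb from the start (7263296 to 7263676) had 79 in knockout cells and 61 in wild-type cells, a ratio of 1.30 (0.949 to 1.77). Thus the nearer region had a signal of at least 61 in both genotypes while the Mmp13 promoter had 4 in the knockout. Distal elements before Mmp13 are known to control it in mouse osteoblastic cells, and whether these regions are such elements was not tested.

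Beyond Mmp3 the direction turned. The promoter region of Mmp10 (7502019 to 7502413, centred 136 bp from the start), which encodes stromelysin-2, the closest relative of stromelysin-1, had a signal of 42 in Rela knockout cells and 16 in wild-type cells. It was 2.63-fold higher in the knockout (1.57 to 4.61), and it lies 56.4 kb from the Mmp3 start. An unassigned region 24.3 kb past the Mmp10 start (7526193 to 7527024) had 106 in knockout cells and 35 in wild-type cells, 3.03-fold higher (2.17 to 4.34). The remaining regions, at 7545503 to 7545852 with 5 and 4 and at 7595217 to 7595604 with 44 and 33 in knockout and wild-type cells, were within 2-fold. Together the 4 regions beyond Mmp3 summed to 197 in knockout cells and 88 in wild-type cells. The Mmp10 log2 ratio of 1.34 lay between 1.16 and 1.58 under the other settings tried.

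Just outside the window, the nearest region on the left (6677506 to 6677809) had a signal of 17 in knockout and 12 in wild-type cells, and the Tmem123 promoter on the right had 196 in knockout and 179 in wild-type cells. The cluster's other metalloproteinase genes, Mmp12 of macrophage elastase, Mmp1a, Mmp8 of neutrophil collagenase, Mmp27, Mmp20 of enamelysin and Mmp7 of matrilysin, had 0 regions in either table. The nearest region of the Rela table lay 12.8 to 71.9 kb from their starts, so no level can be given for them.

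Of the 23 metalloproteinase genes listed, 10 had a region in the Rela table, and by the mean over a gene's regions 5 were at least 2-fold lower and 2 higher, with a median log2 ratio of -1.01. Over all 7217 genes with a tested region, 12.1% were lower and 11.9% higher by the same rule, with a median of -0.03. The 4 members were chosen by their values, and without them 6 genes remained, of which 2 were lower, 1 was higher and 3 did not pass the threshold, and their median was -0.50. The 1 higher was Mmp10. Mmp23, a membrane-anchored member of the family, had a signal of 8 in knockout cells and 20 in wild-type cells at its promoter, 2.50-fold lower (1.16 to 6.60), and its log2 ratio of -1.22 was -0.94 with a pseudocount of 5. Mmp28, of epilysin, had 2 regions away from its start that differed in direction. The one 4316 bp away had 0 in knockout cells and 34 in wild-type cells. With the 0 set at a floor of 3 counts the signal was 11.9-fold lower, and with counting error in both values taken in, the exact lower limit was 9.40-fold. The one 4910 bp away had 75 in knockout cells and 44 in wild-type cells, 1.71-fold higher (1.22 to 2.42), so the gene's mean describes neither.

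The other 3 genes were within 2-fold. Mmp14, whose product activates progelatinase A at the cell surface, had no promoter region, and a region 3750 bp away gave a signal of 47 in knockout cells and 82 in wild-type cells, a log2 ratio of -0.79. Mmp17 had 124 in knockout cells and 81 in wild-type cells at its promoter, a log2 ratio of 0.61. Mmp11, of stromelysin-3, had 25 in knockout cells and 29 in wild-type cells.

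**Figure D4:**
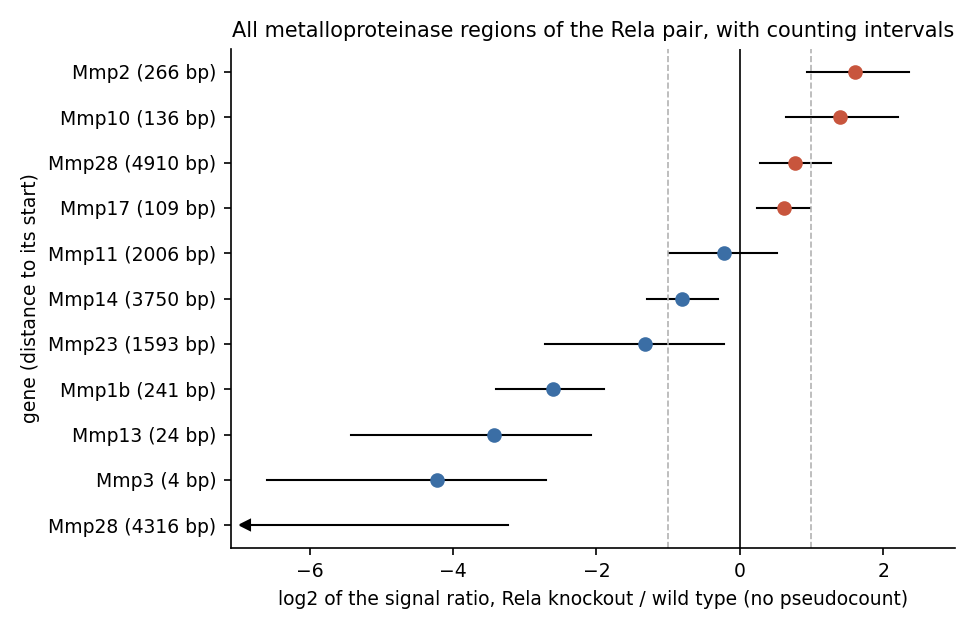
All 11 regions assigned to metalloproteinase genes in the Rela table by the log2 of their signal ratio of knockout over wild type (x axis, no pseudocount), with exact 95% counting intervals as lines and dashed lines at 2-fold. Red points are higher and blue points lower in the knockout. The arrow stands for the Mmp28 region with 0 in knockout cells. Its interval and those of Mmp1b, Mmp13 and Mmp3, genes chosen with their values known, lie wholly beyond a 2-fold lower signal. The share of all regions with such intervals was not computed, so nothing is read from this.

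Genes that act with the metalloproteinases were taken from lists, whose calls were read against the shares over all genes given above. Of 5 inhibitor genes 2 had a region. Timp3, whose product inhibits metalloproteinases in the matrix, had a signal of 22 in knockout cells and 46 in wild-type cells, and its log2 ratio of -1.03 was within 2-fold in 4 of 9 other settings, reaching -0.19 when centred on neighbouring regions. Timp1 had 122 in knockout cells and 100 in wild-type cells. Of 27 ADAM and ADAMTS protease genes 10 were measured, with 1 lower and 1 higher by the gene mean. The procollagen N-proteinase gene Adamts2 had 2 in knockout cells and 14 in wild-type cells, 7-fold lower (1.75 to 63.5). Adamts9, of an aggrecan and versican protease, had 28 in knockout cells and 12 in wild-type cells, 2.33-fold higher (1.25 to 4.41), and its log2 ratio of 1.16 was 0.96 with a pseudocount of 5. Adamts7, with a gene mean of 0.73, had a region with 17 in knockout cells and 5 in wild-type cells, a log2 ratio of 1.59. Its other region was at -0.13.

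Of 8 genes of the plasminogen system and of proenzyme activation, 4 had a region. By the gene mean 0 of them passed 2-fold in either direction. The Bsg promoter region alone did, with 20 in knockout cells and 44 in wild-type cells, 2.20-fold lower (1.32 to 3.78). The other Bsg region had a log2 ratio of -0.69, which put the gene mean at -0.90. Of 16 matrix substrate genes 7 were measured, with 1 lower and 0 higher by the gene mean. The lower one was Col5a1, a fibrillar collagen gene, with 20 in knockout cells and 53 in wild-type cells, a log2 ratio of -1.36 that became -0.98 when centred on neighbouring regions. Col1a2 had a gene mean of -0.95, from a region 2707 bp from its start at -1.11 and a promoter region at -0.79. Of 21 known regulators of metalloproteinase genes 16 were measured, with 2 lower, 1 higher and 13 within 2-fold. Runx1, of a RUNX factor, had 17 in knockout cells and 94 in wild-type cells at a region 2197 bp from its start, 5.53-fold lower (3.36 to 9.59). Fos, an AP-1 subunit gene, had 26 in knockout cells and 66 in wild-type cells, 2.54-fold lower (1.67 to 4.12). Jund, another AP-1 subunit gene, had 139 in knockout cells and 64 in wild-type cells, 2.17-fold higher (1.65 to 2.83), but its log2 ratio of 1.11 was 0.50 with chromosomes centred. Jun and Junb, with 286 and 332 in knockout cells and 232 and 320 in wild-type cells, were within 2-fold.

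Markers were read beside these values. Of 11 fibroblast markers 8 had a region in the Rela table, among them Vim with 108 in knockout cells and 110 in wild-type cells, and Col1a1, Dcn and Lum had none. By the gene mean 2 of the 8 were higher (Fbln1 and S100a4) and 1 was lower (Dpt). Centred on neighbouring regions, S100a4, with a log2 ratio of 0.67, and Dpt, with -0.76, came within 2-fold. The summed signal of all 8 was 441 in knockout cells and 415 in wild-type cells, of which S100a4 alone held 133 and 46. The median log2 ratio of the 8 was -0.16. Of 9 macrophage and neutrophil markers, cells known for Mmp12, Mmp8 and Mmp9, 3 had a region (Cd68, Csf1r and Ptprc), with a summed signal of 73 in knockout cells and 90 in wild-type cells, and the other 6 had none. Of 7 osteoblast and chondrocyte markers, cells known for Mmp13, Runx2 alone was measured, with 39 in knockout cells and 51 in wild-type cells. Of 6 epithelial markers Krt19 alone was measured, with 19 in knockout cells and 8 in wild-type cells. The part of other cell types in the metalloproteinase values was not tested. The Rela gene itself had 1 region, at its own start, with 27 in knockout cells and 21 in wild-type cells, and a promoter signal is no check of a deletion further along. The columns of the Rela table summed to 1458609 in knockout cells and 1386832 in wild-type cells.

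In the Kindlin-2 pair no level of these genes can be given. None of the 23 metalloproteinase genes had a region in that table, and 0 of its regions lay on chromosome 9 from 7.0 to 7.7 Mb. Over the Kindlin-2 pair, 2-fold was passed by 16.2% of regions as higher and 9.27% as lower in the knockout, by 9.06% and 10.6% of promoter regions, and by 8.67% and 11% of genes. The balance of regions, 925 higher and 531 lower, turned with quantile scaling to 573 higher and 603 lower and with loess scaling to 457 higher and 513 lower, and equal nuclear sums gave 1195 higher and 303 lower. None of the inhibitor and plasminogen system genes was measured there. Of the ADAM and ADAMTS genes, Adamts5, of an aggrecan-degrading protease, had a signal of 9 in Kindlin-2 knockout cells and 4 in floxed cells, 2.25-fold higher with an interval that included 1 (0.55 to 12.7). Of the substrate genes, Fn1, of fibronectin, had 12 in knockout cells and 26 in floxed cells, 2.17-fold lower (0.993 to 4.87). None of the 11 fibroblast markers and no region of Fermt2, the gene of Kindlin-2, was in the table. Neither the fibroblast label nor the knockout could therefore be checked by them. Of 9 macrophage and neutrophil markers, Ptprc alone had a region, 4673 bp from its start. Its signal was 27 in Kindlin-2 knockout cells and 10 in floxed cells, 2.7-fold higher in the knockout (1.204 to 7.709). No epithelial, osteoblast or chondrocyte marker was measured there. The part of other cell types in the Kindlin-2 values was not tested. The nearest region to Mmp2 was 471 kb away. The regions flanking the chromosome 9 window were the Tmem123 promoter, with a signal of 6 in Kindlin-2 knockout cells and 37 in floxed cells, and an unassigned region at 6454628 to 6454945, with 21 in knockout cells and 61 in floxed cells. Of the 91 regions of chromosome 9 in the Kindlin-2 pair, 25.3% were at least 2-fold lower and 12.1% higher, with a median log2 ratio of -0.415. Lower values were thus not particular to these flanks. Mitochondrial DNA held 86.2% of the summed signal of 827408 in Kindlin-2 knockout cells and 91.8% of 1655317 in floxed cells, which left 114217 and 134996 of nuclear signal in knockout and floxed cells. Of 5456 promoter regions of the Rela table with a wild-type signal from 18 to 104, the range of the 4 members, 24.4% overlapped a region of the Kindlin-2 table. Having 0 regions is therefore common for promoters of this strength, and it does not show that the metalloproteinase promoters were closed in kidney fibroblasts.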

How the data were processed

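ATAC-seq libraries of 4 genotypes were described from 2 deposited tables with 1 value column per genotype. The values are a score: per the labels' name for each table, the authors corrected the signal for background and normalized it by the DESeq method, and they are whole numbers but not read counts. The submitters' processing notes name the aligner STAR 2.4.2a, the peak caller MACS2, Trimmomatic 0.33, Picard 1.136, bedtools, deepTools, FastQC, DESeq2 and the build mm10, without their role or order. The sources used here do not give Tn5 shifting, duplicate removal, region calling or how the 2 replicates became 1 column. The distance to the gene start is the authors'.

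Regions with a mean signal of at least 1 were tested for a log2 ratio of at least 1 in size, with a pseudocount of 1, which understates changes of weak regions. Without replicate columns no test was possible and no p-value is given. Counting intervals used implied counts: the factor by which whole counts had been scaled before rounding was read from the whole values that were too rare or too frequent between 5 and 120. It was 0.949 for the Rela knockout (80.2% of the deviance explained), 0.683 for the Rela wild type (93.6%, the second choice 68.1%) and 1.36 for Kindlin-2 floxed (95.4%). The best factor for the Kindlin-2 knockout explained 39.2%, and 1 was used in its place. Ratio intervals are exact (Clopper-Pearson) and intervals of single values exact Poisson. They treat the corrected values as scaled counts and leave out the error of that correction and the difference between cultures. The calculations were tested on simulated counts with known factors and fold changes. The simulation had no background correction and no merging of replicates, so it cannot show that the intervals hold for the deposited values.

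Named were every region of the 4 genes and of the window, every other metalloproteinase gene with a region, and up to 4 genes per list past 2-fold; others named for context, and the neighbourhood of Mmp2, were chosen after their values were seen. The members and the 10 lists were chosen with earlier results of these data known. Symbols were matched exactly. Promoter sequences came from a RefSeq table of build GRCm38.p6 and identities from global alignment in Biopython 1.88 (match 1, mismatch -1, gap opening -3, gap extension -0.5). Python 3.11.15, pandas 2.3.3, scipy 1.17.1 and statsmodels 0.14.6 were used. Other pseudocounts, filters, scalings, centrings, thresholds and windows were tried.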

Additional observations from a re-analysis of the deposited data

How the results depend on the processing

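Mmp3, Mmp13 and Mmp1b stayed at least 2-fold lower in the Rela knockout under the 9 other pseudocounts, filters, scalings and centrings tried, with log2 ratios from -4.05 to -2.93, -3.32 to -2.42 and -2.62 to -2.30. The filters among these settings cannot change a region's own ratio, so they carry no information on it. Centring takes off the chromosome 9 median of -0.24 or the neighbouring regions' median of -0.03, and equal sums moved the table's median by -0.07. Shifts this small could not bring the 3 ratios within 2-fold, so these settings are no check of them. Mmp2 lay between 0.69 and 1.60. The count of higher members was 0, not 1, with chromosomes centred, when centred on neighbouring regions and at a 3-fold threshold, and the count of higher metalloproteinase genes was 1, 1 and 0 there, not 2. In the chromosome 9 window the higher regions were 0 at 3-fold, against 2. These counts at 3-fold use the pseudocount of 1. With it Mmp2, at a log2 ratio of 1.56, and the region at 7526193 to 7527024, at 1.57, fell just short. Without the pseudocount they were 3.06-fold and 3.03-fold higher. From 6.5 to 8.2 Mb, 6 were higher and 7 lower, and without Mmp3, Mmp13 and Mmp1b the lower regions were 1, not 4. The window's ratio of summed signal, 0.775, was 0.918 with chromosomes centred and 0.986 from 6.5 to 8.2 Mb, and it reversed to 1.2 without those 3 promoters, which its construction explains, and, as chosen after seeing the data, was 0.971 when the region of the largest excess in the knockout was also left out. Over all regions of the Rela table a 3-fold threshold left 4153 higher and 3308 lower. In the Kindlin-2 table, with 925 higher and 531 lower, the counts were 543 and 335 with a pseudocount of 5, 1524 and 1246 at 1.5-fold, and 446 and 149 at 3-fold. Lower regions outnumbered higher ones at a mean signal of at least 10 (387 higher, 491 lower), after quantile (573 and 603) and after loess scaling (457 and 513). Equal nuclear sums gave 1195 higher and 303 lower and moved the table's median log2 ratio by 0.23 (the filter moved it by -0.13). The shift with equal sums follows from the rescaling, since the nuclear sums were 114217 in Kindlin-2 knockout cells and 134996 in floxed cells. Why these sums differed was not tested. Taking each value as a count, chosen after seeing the data, gave the Mmp3 log2 ratio an interval of -6.54 to -2.60, against -6.61 to -2.70. No paired analysis was possible because each genotype had 1 column. Depth limits the lower values most: Mmp3 and Mmp13 rested on 3.16 and 4.21 implied counts in the knockout.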

Other observations

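The stretch of chromosome 9 past the metalloproteinase cluster differed in both directions in the Rela pair. The promoter of Yap1, which encodes the transcriptional coactivator of the Hippo pathway, had a signal of 174 in knockout cells and 78 in wild-type cells, 2.23-fold higher (1.76 to 2.84). The 9230110C19Rik promoter had 88 in knockout cells and 42 in wild-type cells, and unassigned regions at 8104273 to 8104637 and 8139412 to 8139802 had 63 and 30 in knockout cells and 24 and 11 in wild-type cells. The Birc2 promoter, of an inhibitor of apoptosis that acts in NF-kB signalling, had 96 in knockout cells and 113 in wild-type cells. The Cep126 promoter had 44 in knockout cells and 36 in wild-type cells. A region at 8162865 to 8163203 had 23 in knockout cells and 65 in wild-type cells. On the other side of the cluster, a region at 6668176 to 6668560 had 6 in knockout cells and 41 in wild-type cells, 6.83-fold lower (3.12 to 20.4). The remaining lower region, at 6528935 to 6529213, had 9 in knockout cells and 20 in wild-type cells.

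Around Mmp2 the unassigned regions also had a higher signal in the Rela knockout, though not all by 2-fold. On chromosome 8, 36.9% of tested regions were past 2-fold as higher. The regions on each side of Mmp2 had a median log2 ratio of 0.87. Higher values were thus not particular to this gene. Before its start, an unassigned region 14.3 kb away had 26 in knockout cells and 10 in wild-type cells. Another 8.9 kb before the start had 21 in knockout cells and 16 in wild-type cells, within 2-fold. One 6.1 kb before the start had a signal of 32 in knockout cells and 3 in wild-type cells, 10.7-fold higher (4.21 to 45.8). Inside the gene, a region 22.2 kb past the start had 111 in knockout cells and 31 in wild-type cells, 3.58-fold higher (2.54 to 5.21), while another at 20.2 kb had 122 in knockout cells and 120 in wild-type cells. Past the gene, a region 40.2 kb from the start had 24 in knockout cells and 3 in wild-type cells.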
